A study of Mus musculus with 14 samples.

Results

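Messenger RNA of 33 genes of B cells and plasma cells was followed in sorted regulatory T cells of mouse spleen. The 33 genes were given as a list of names. Of these, 27 are genes of B cells, which carry an antibody as their antigen receptor, and 6 are genes of plasma cells, which secrete it. The deposited tables cover 30284 genes, and all 33 were found in them and passed the filter on low counts, which left 15775 genes to test. The study compared 2 genotypes of strain C57/B6. The control mice were Tln1wt/wt Foxp3cre/wt and the knockout-labelled mice were Tln1fl/fl Foxp3cre/wt, and the labels give no age or treatment. Tln1 encodes talin, which activates integrins, the adhesion receptors of white blood cells. All mice of both groups carried 1 Foxp3cre allele, so Cre recombinase was driven from the Foxp3 locus in the controls as well. Cells positive for Foxp3 and YFP were sorted by flow cytometry, and a library held cells of 1 or 2 animals. There were 4 control and 3 knockout-labelled units, each the sum of 2 sequenced samples with the same first number.

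A B cell assembles its receptor from an antibody and the chains CD79A and CD79B, whose tails recruit the kinases LYN, BLK, SYK and BTK and the adaptor BLNK. The transcription factors EBF1 and PAX5 hold the B cell programme in place. When a B cell turns into a plasma cell, PAX5 is lost, XBP1 enlarges the secretory apparatus, and large amounts of immunoglobulin and of the joining chain JCHAIN are made. The sorted population, by contrast, belongs to the T lineage: regulatory T cells hold immune responses in check and are not known to make antibody or its receptor chains.

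The promoters were searched for 5 short motifs, and none was held by more than 13 of them. RefSeq promoters (GRCm38.p6, 250 bases before to 50 after the gene start) were found for 27 of the 33 genes. Vpreb3 is shown for the octamer bound by the member Pou2f2 with its partner Pou2af1. Bank1, Cd22, Spib and Sdc1 are shown for the paired half-sites of EBF1, Fcrla for an E-box next to an ETS core, and Pou2af1 for the element of the unfolded protein response, the programme that XBP1 serves in secreting cells. Each sequence runs 5′ to 3′ on the strand of its gene and lies outside annotated exons, and capitals mark the matches.
Vpreb3, chr10:75948220-75948297, gene on the plus strand: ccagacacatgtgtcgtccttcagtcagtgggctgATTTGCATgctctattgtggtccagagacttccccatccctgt
Bank1, chr3:136326067-136326122, minus strand: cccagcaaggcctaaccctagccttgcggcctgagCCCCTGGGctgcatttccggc
Cd22, chr7:30879034-30879111, minus strand: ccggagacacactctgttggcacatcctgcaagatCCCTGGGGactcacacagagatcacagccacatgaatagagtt
Spib, chr7:44532094-44532171, minus strand: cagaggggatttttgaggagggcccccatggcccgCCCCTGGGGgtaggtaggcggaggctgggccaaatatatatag
Sdc1, chr12:8771216-8771293, plus strand: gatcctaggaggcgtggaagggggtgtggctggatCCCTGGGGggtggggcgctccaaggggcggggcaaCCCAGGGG
Fcrla, chr1:170927612-170927687, minus strand: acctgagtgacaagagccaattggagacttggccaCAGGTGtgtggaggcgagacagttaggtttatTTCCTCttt
Pou2af1, chr9:51213594-51213671, plus strand: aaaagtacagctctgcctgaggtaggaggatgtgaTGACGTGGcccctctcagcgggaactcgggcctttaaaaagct
The Vpreb3 and Cd22 stretches lie before the RefSeq start but inside an intron of the longer gene model of the annotation.

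Motifs were searched on both strands. The octamer ATGCAAAT was found in the promoters of 2 of the 27 genes, Blnk and Vpreb3, and in 1.97% of the 27025 genes with a promoter in the table. CCCNNGGG was found in 4 of 27, which are the 4 shown, against 15.4% of all genes. The 9-letter run of Spib holds 2 overlapping matches of CCCNNGGG. GAGGAA, the ETS core, was found in 13 of 27 against 31.3%. The E-box CAGGTG was also found in 13 of 27, against 22.6%. TGACGTGG, the element of the unfolded protein response, was found in Pou2af1 alone among the 27 and in 0.714% of all genes. A plasma cell gene held a match for 3 of the 5 motifs (CCCNNGGG, GAGGAA and CAGGTG).

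Total estimated reads ranged from 13017008 to 39706502 in the control units and from 39314880 to 56772674 in the knockout-labelled units. Levels are given as CPM, read counts scaled to a common library size. The targeted gene Tln1, on chromosome 4, was at 634, 543, 847 and 649 CPM in the 4 control units and at 788, 901 and 1014 CPM under the knockout label, so its whole-gene level was not lower there (edgeR quasi-likelihood test, adjusted p = 0.126). Counts summed over a gene do not show whether single exons were lost. Every direction below is therefore one between labelled groups. Foxp3, which defines the sorted cells, was at 324 to 478 CPM in the control units and 370 to 515 CPM in the others (adjusted p = 0.923).

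Markers of other cells differed between the groups too. Beside the counts that follow, 7.07% of all genes tested were higher and 6.52% lower, at a false discovery rate of 0.05. The summed level of 12 neutrophil genes was 2.00 to 15.7 CPM in the control units and 264 to 1617 CPM in the knockout-labelled units, and 11 of 12 rose. The sum of 12 erythroid and platelet genes was 7.39 to 37.5 CPM against 70.7 to 2911 CPM, with 1 of 9 tested higher. For 15 genes of monocytes, macrophages and dendritic cells it was 40.0 to 189 CPM against 285 to 669 CPM, with 4 of 15 higher. For 13 genes of plasmacytoid dendritic cells it was 206 to 239 CPM against 324 to 386 CPM, with 6 of 11 tested higher. For 10 genes of NK and CD8 T cells it was 39.4 to 48.4 CPM against 67.5 to 128 CPM, with 5 of 10 higher. The sum of 15 T cell genes was 7527 to 7805 CPM against 5193 to 6606 CPM, with 0 higher and 3 lower. DESeq2 and limma-voom called 10 of the 15 myeloid genes and 8 of the 12 neutrophil genes as higher, and DESeq2 called 4 of the erythroid and platelet genes. Over all 15775 genes tested, DESeq2 called 1839 and limma-voom 1158 as higher. No gene of these 6 lists was at 0 in all 7 units, and the part of these cell types in the results below was not tested. Knockout-labelled unit 3 held the highest neutrophil and erythroid sums, and control unit 1 the highest myeloid sum among the controls. In bulk RNA, more cells of a type and more RNA per cell cannot be told apart.

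Most of the genes were higher in the knockout-labelled units. At a false discovery rate of 0.05, 20 of the 33 rose, 1 fell and 12 did not pass. Of all genes tested, 13.6% passed, 7.07% as higher and 6.52% as lower. Every knockout-labelled unit lay above every control unit for 26 of the 33, against 16.7% of all genes. The median log2 fold change was 2.46, beside 0.06 over all genes tested. Among the 27 B cell genes 17 rose and 1 fell, with a median of 2.24, and among the 6 plasma cell genes 3 rose and 0 fell, with a median of 3.29. The number of B cell genes that rose was smaller without single units: 11 without control unit 2, 10 without control unit 4 and 11 without knockout-labelled unit 2. It was 13 without knockout-labelled unit 3. For the plasma cell genes it was 3 or 4 in each of these fits.

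**Figure D1:**
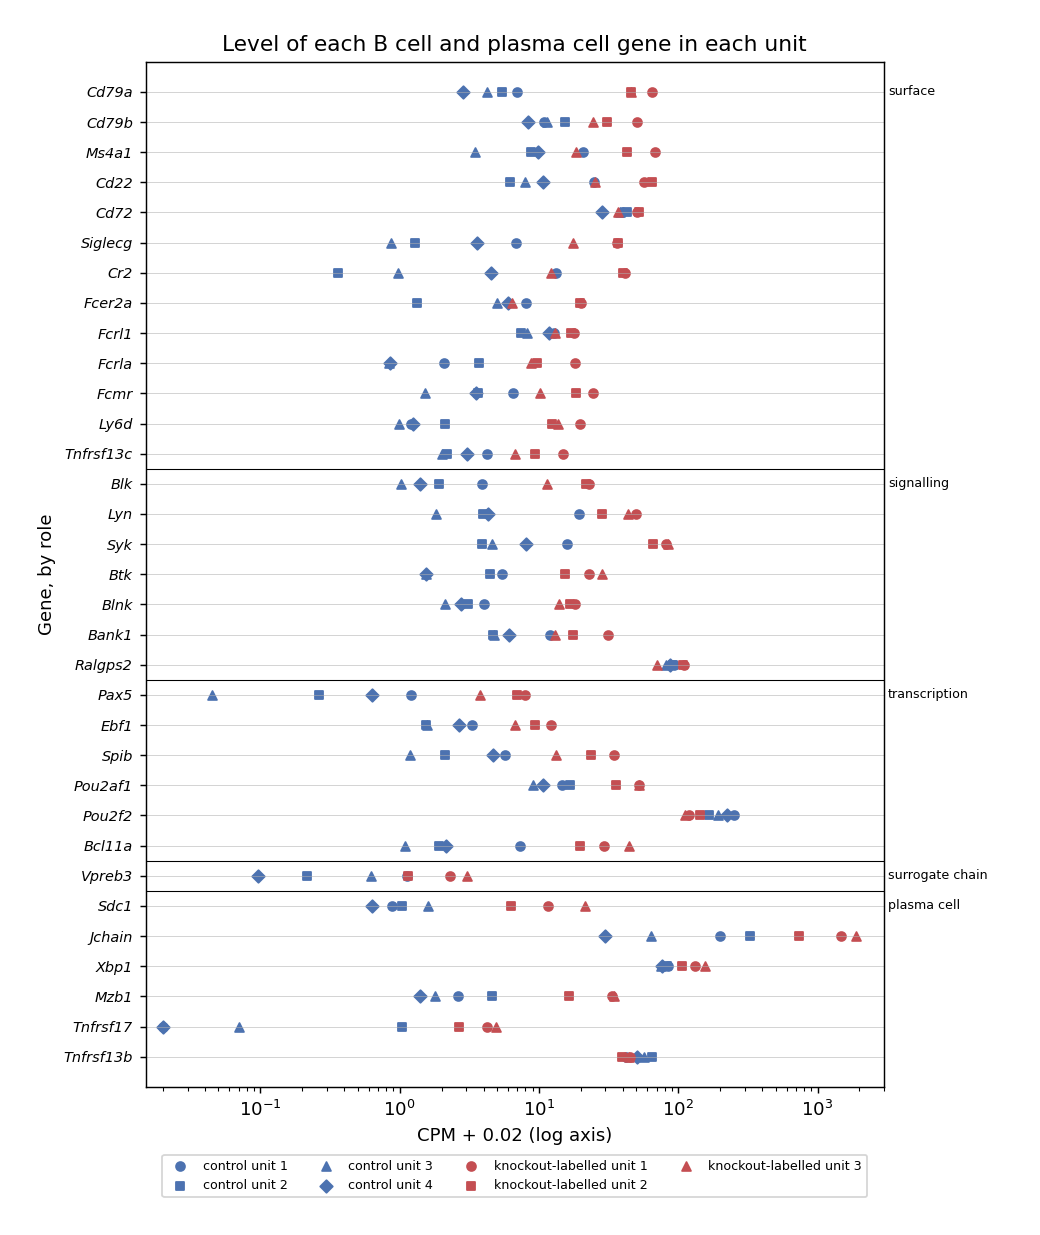
Level of each of the 33 genes in each unit, as CPM with 0.02 added on a log axis, with genes in rows grouped by role. Blue points are the 4 control units and red points the 3 knockout-labelled units. The colours do not overlap for most rows, and in Pou2f2 all red points lie left of the blue ones.

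Of 13 genes of the receptor complex and the B cell surface, 7 rose and 0 fell, with a median log2 fold change of 2.05. Cd79a, the signalling chain of the receptor, had 6.92, 5.42, 4.22 and 2.82 CPM among the controls, in the order of unit numbers used throughout, and 64.5, 45.6 and 45.9 CPM under the knockout label. The groups lay far apart, at 4.85 ± 1.75 (SD, n = 4) and 52.0 ± 10.8 CPM (SD, n = 3), with a log2 fold change of 3.43 ± 0.28 (SE, adjusted p = 0.000262). Cd79b, its partner, was at 10.9, 15.3, 11.4 and 8.30 CPM and at 51.0, 30.9 and 24.2 CPM. It rose less, by 1.62 ± 0.28 on the log2 scale (adjusted p = 0.00792). In the control units there were 158 to 295 Cd79b reads for 100 Cd79a reads, and in the knockout-labelled units 52.8 to 79.1. The 2 chains of 1 receptor thus did not keep a single ratio between the groups.

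Ms4a1, which encodes CD20, was at 20.5, 8.69, 3.45 and 9.75 CPM in the control units and at 68.2, 43.1 and 18.5 CPM in the others. Control unit 1 lay above knockout-labelled unit 3, and the difference of 2.04 ± 0.69 did not pass (adjusted p = 0.104). Cr2, the complement receptor CD21 that is high on marginal zone and follicular B cells, showed the same overlap, at 13.2, 0.342, 0.949 and 4.50 CPM against 41.2, 40.1 and 12.1 CPM. Fcer2a, the IgE receptor CD23 of follicular B cells, was at 8.10, 1.32, 4.94 and 5.94 CPM against 20.03, 19.6 and 6.34 CPM. Its adjusted p was 0.120, and that of Cr2 was 0.195. In all 3 genes control unit 1 was the highest control and knockout-labelled unit 3 the lowest of its group.

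Cd22 and Siglecg encode inhibitory receptors that bind sialic acid. Cd22 was at 24.7, 6.20, 7.89 and 10.7 CPM in the control units and at 56.6, 64.4 and 25.2 CPM in the others, with no overlap but an adjusted p of 0.0675. Without control unit 1 it passed (adjusted p = 0.00841). Siglecg was at 6.84, 1.27, 0.849 and 3.58 CPM against 36.3, 37.1 and 17.4 CPM, and rose by 3.31 ± 0.77 (adjusted p = 0.0410). The log2 fold change of Siglecg was 4.06 without control unit 1, and its call was lost in the fits without control unit 2, without control unit 4, and without any 1 of the knockout-labelled units. Cd72, another inhibitory receptor, was at 28.2 to 43.1 CPM in the control units and 37.0 to 51.9 CPM in the others (adjusted p = 0.235). Its value is uncertain: 38.5% of its 31-base words occur in another gene, and 1423 bases of exon overlap Tesk1 on the opposite strand in libraries that do not keep strand. Cd72 also lies 76.9 kb from Tln1 on chromosome 4.

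Ly6d, a surface protein that marks early commitment to the B lineage, was at 1.18, 2.10, 0.974 and 1.22 CPM in the control units and at 19.8, 12.3 and 13.6 CPM in the others. It rose by 3.47 ± 0.34 on the log2 scale (adjusted p = 0.000628). For 100 Cd79a reads there were 17.0 to 43.2 Ly6d reads in the control units and 26.99 to 30.7 in the knockout-labelled units, which is the narrowest spread over the knockout-labelled units among the other 32 genes. Fcrla, an intracellular Fc receptor-like protein, was at 2.04, 3.71, 0.824 and 0.838 CPM against 18.1, 9.65 and 8.75 CPM (2.71 ± 0.55, adjusted p = 0.0172), with a log2 fold change of 3.33 without control unit 2. Fcmr, the receptor for IgM, was at 6.45, 3.61, 1.498 and 3.50 CPM against 24.5, 18.4 and 10.1 CPM (adjusted p = 0.0191), a call lost without control unit 2, control unit 4 or knockout-labelled unit 2. Fcrl1, an activating receptor, was at 7.42 to 12.9 CPM against 12.9 to 18.0 CPM, and its difference of 0.66 ± 0.25 did not pass (adjusted p = 0.104). Tnfrsf13c, the receptor for the survival factor BAFF, was at 4.25, 2.15, 2.00 and 3.05 CPM against 14.9, 9.42 and 6.73 CPM, a rise of 1.87 ± 0.37 (adjusted p = 0.0131).

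Of the 7 genes that carry the receptor's signal, 5 rose and 0 fell, with a median log2 fold change of 2.49. The kinase gene Syk was at 15.8, 3.86, 4.62 and 8.08 CPM in the control units and at 81.5, 65.4 and 83.7 CPM in the others. It rose by 3.28 ± 0.51 (adjusted p = 0.0136), but not past the threshold without control unit 4 or knockout-labelled unit 3. Blk, a kinase of the Src family, was at 3.85, 1.91, 0.999 and 1.37 CPM against 23.0, 21.6 and 11.4 CPM (3.22 ± 0.46, adjusted p = 0.00442). Blnk, the adaptor that SYK phosphorylates, was at 4.01, 3.08, 2.10 and 2.74 CPM against 18.2, 16.7 and 13.8 CPM (2.46 ± 0.28, adjusted p = 0.00108). Btk, on the X chromosome, was at 5.43, 4.45, 1.52 and 1.52 CPM against 22.9, 15.4 and 28.3 CPM (2.79 ± 0.49, adjusted p = 0.0119). In each of these 4 genes all 3 knockout-labelled units lay above all 4 control units.

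Lyn, the first kinase of the cascade, was at 19.3, 3.96, 1.80 and 4.27 CPM in the control units and at 49.5, 28.4 and 43.3 CPM in the others. The groups did not overlap, but control unit 1 stood apart from the other controls and the difference did not pass in edgeR (2.49 ± 0.85, adjusted p = 0.109). Without control unit 1 the log2 fold change was 3.62 and passed (adjusted p = 0.00104), as it did with all units in DESeq2 (adjusted p = 0.0197) and limma-voom (adjusted p = 0.0132). Of its 31-base words 17.3% occur in another gene. Bank1, a scaffold of B cell receptor signalling, was at 12.03, 4.64, 4.72 and 6.10 CPM against 31.1, 17.5 and 13.1 CPM and rose by 1.59 ± 0.41 (adjusted p = 0.0349). That call was lost without control unit 2, 3 or 4 and without knockout-labelled unit 1 or 2. Ralgps2, an activator of Ral GTPases, was at 81.6 to 93.3 CPM in the control units and 70.2 to 111 CPM in the others, with overlap and an adjusted p of 0.652.

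All 6 transcription factor genes passed the test, 5 as higher and 1 as lower. Pax5, the factor that keeps B cell identity, was at 1.18, 0.244, 0.0250 and 0.610 CPM in the control units and at 7.90, 6.97 and 3.77 CPM in the others. Its rise of 3.73 ± 0.89 (adjusted p = 0.0330) was the largest of the B cell genes with all units. The value ran from 3.23 without control unit 3, where Cd79a (3.36) and Ly6d (3.32) were higher, to 4.65 without control unit 1. The call was lost without control unit 2 or 4 and without knockout-labelled unit 1, 2 or 3. Pax5 lies 962 kb from Tln1. Ebf1, which acts before Pax5 in B cell development, was at 3.30, 1.51, 1.55 and 2.67 CPM against 12.1, 9.39 and 6.69 CPM (2.07 ± 0.37, adjusted p = 0.00865). Spib, an ETS factor of B cells and plasmacytoid dendritic cells, was at 5.66, 2.10, 1.17 and 4.65 CPM against 34.3, 23.8 and 13.2 CPM (adjusted p = 0.0231). Without control unit 2, control unit 4 or knockout-labelled unit 2, Spib did not pass.

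Bcl11a, a zinc finger factor needed for early B cells and also active in plasmacytoid dendritic cells, was at 7.31, 1.91, 1.07 and 2.13 CPM against 29.3, 19.8 and 44.0 CPM (3.36 ± 0.70, adjusted p = 0.0290). Without control unit 1 its log2 fold change was 4.22, and its call was lost without control unit 2 or 4 and without knockout-labelled unit 2 or 3. Pou2af1, the coactivator OBF1, was at 14.7, 16.8, 9.02 and 10.7 CPM against 52.4, 36.0 and 52.4 CPM and rose by 1.88 ± 0.24 (adjusted p = 0.00175). Pou2f2, the octamer factor OCT2 with which it acts, went the other way, from 251, 165, 193 and 224 CPM to 118, 142 and 112 CPM. Every knockout-labelled unit lay below every control unit, and Pou2f2 fell by 0.75 on the log2 scale (SE 0.17, adjusted p = 0.0196), a call lost without control unit 4 or knockout-labelled unit 3. In the control units there were 3050 to 7938 Pou2f2 reads for 100 Cd79a reads, against 184 to 312 in the knockout-labelled units. The rise of Cd79a itself, 3.43 on the log2 scale, also enters this ratio. By CPM, the factor and its coactivator differed in direction.

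Vpreb3, a partner of the immunoglobulin chain in B cell precursors, was at 1.10, 0.195, 0.599 and 0.0762 CPM in the control units and at 2.28, 1.12 and 3.05 CPM in the others. The groups did not overlap but the difference did not pass (adjusted p = 0.0713), though it did without control unit 1 (adjusted p = 0.0378). Genes of B cell precursors that are not among the 33 were given by a list of 13, of which 9 could be tested and 3 rose. These were Cd93, at 1.14 to 2.83 CPM against 13.2 to 38.7 CPM (adjusted p = 0.00241), Cplx2 (adjusted p = 0.0376) and Erg, at 0 in every control unit and at 0.531, 0.561 and 2.75 CPM in the others (adjusted p = 0.0157). Cd93 and Erg are also active outside the B lineage. The recombinase gene Rag1 and the surrogate light chain genes Igll1, Vpreb1 and Vpreb2 did not pass the filter on low counts.

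Of the 6 plasma cell genes, Sdc1, Xbp1 and Mzb1 rose, and the other three did not pass in edgeR. The DESeq2 Wald test called 5 of the 6 as higher, with Jchain and Tnfrsf17 added, and limma-voom called 4. Over all 15775 genes tested, DESeq2 called 1839 and limma-voom 1158 as higher. At an unadjusted p under 0.05 in edgeR 5 were higher and 0 lower. The share of all genes at that unadjusted threshold was not computed, here or for the lists below. Sdc1, which encodes the plasma cell surface marker CD138, was at 0.865, 1.03, 1.57 and 0.610 CPM in the control units and at 11.5, 6.30 and 21.5 CPM in the others. Its log2 fold change was 3.64 ± 0.47 (adjusted p = 0.00189). Mzb1, a chaperone of antibody assembly, was at 2.60, 4.59, 1.77 and 1.37 CPM against 33.5, 16.3 and 34.3 CPM (3.44 ± 0.44, adjusted p = 0.00339). Both were low in the control units, below 5 CPM in each. Xbp1 was at 84.2, 82.5, 74.9 and 76.6 CPM against 131, 106 and 156 CPM, a smaller rise of 0.72 ± 0.14 (adjusted p = 0.0130) from a level already present in the controls.

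Jchain, which joins IgA and IgM into polymers, was at 201, 328, 63.4 and 29.7 CPM in the control units and at 1469, 736 and 1898 CPM in the others. The groups did not overlap, but the control units ranged widely and the difference did not pass (3.14 ± 0.91, adjusted p = 0.0776). Per length, in TPM, Jchain was the highest of the 33 genes in both groups, at 109 ± 91.3 (SD, n = 4) in the control units and 926 ± 345 (SD, n = 3) in the others. Tnfrsf17, the receptor BCMA of long-lived plasma cells, had no reads in control units 1 and 4, and was at 1.03 CPM in control unit 2 and 0.0499 CPM in control unit 3. In the knockout-labelled units it was at 4.25, 2.63 and 4.91 CPM, and with a control level resting on 1 unit it did not pass (adjusted p = 0.0718). Without control unit 2 it did (adjusted p = 0.00229). Tnfrsf13b, the receptor TACI that binds the same ligands, was at 42.1, 64.9, 57.0 and 50.6 CPM against 45.4, 39.2 and 44.0 CPM (adjusted p = 0.183), with overlap. Its log2 fold change, -0.33 ± 0.16 (SE), was the only one below 0 among the plasma cell genes.

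**Figure D2:**
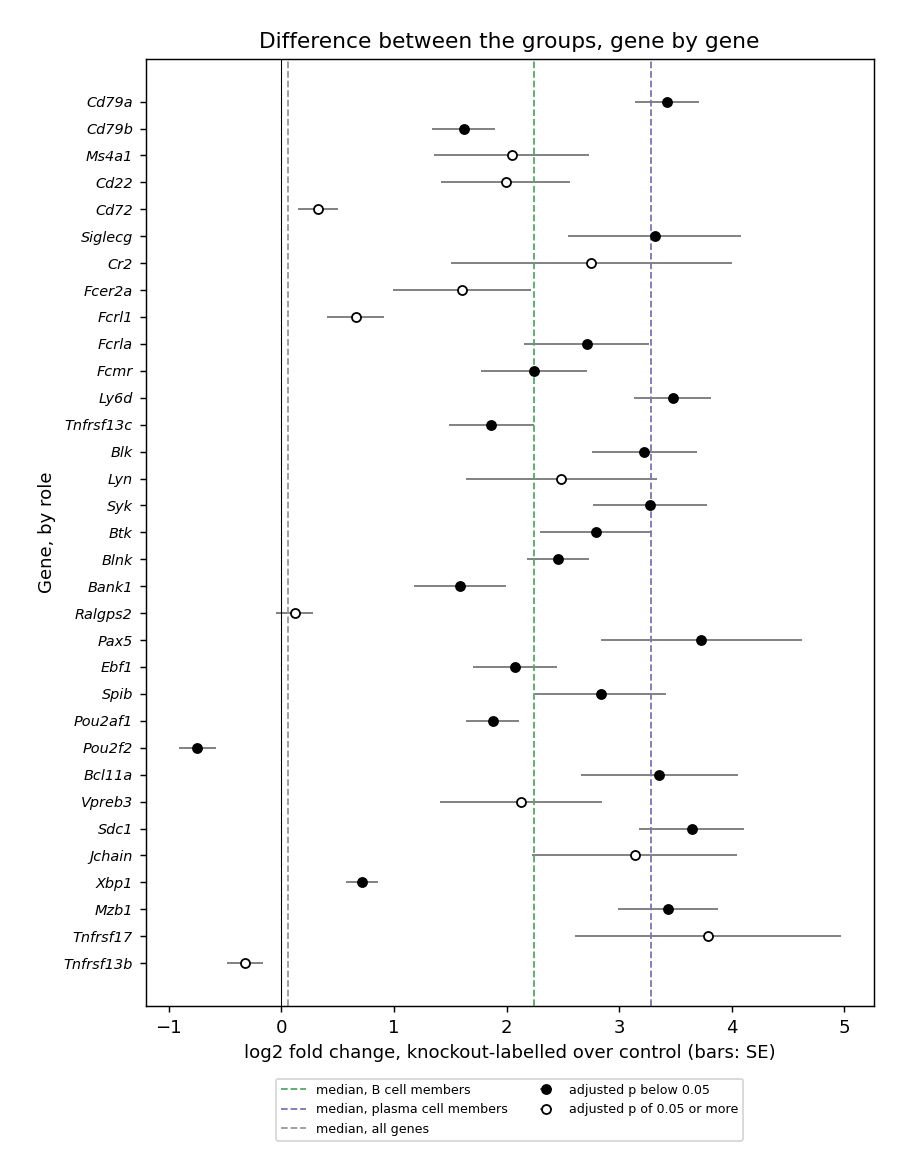
Log2 fold change of the 33 genes, knockout-labelled over control, from the edgeR quasi-likelihood fit, with bars for the SE and filled points for an adjusted p below 0.05. Dashed lines give the medians, 2.24 for the B cell genes, 3.29 for the plasma cell genes and 0.06 for all genes tested.

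The size of the difference went with the level in the control units. Of the 6 genes with a control mean of at least 10 TPM (Jchain, Xbp1, Cd72, Ralgps2, Pou2f2 and Tnfrsf13b), 1 rose, 1 fell and the median log2 fold change was 0.22. Of the 27 genes under 10 TPM, 19 rose, 0 fell and the median was 2.71. Jchain is the exception among the first set. The control level enters both quantities, so this is a description of the 33 genes and no test was made.

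**Figure D3:**
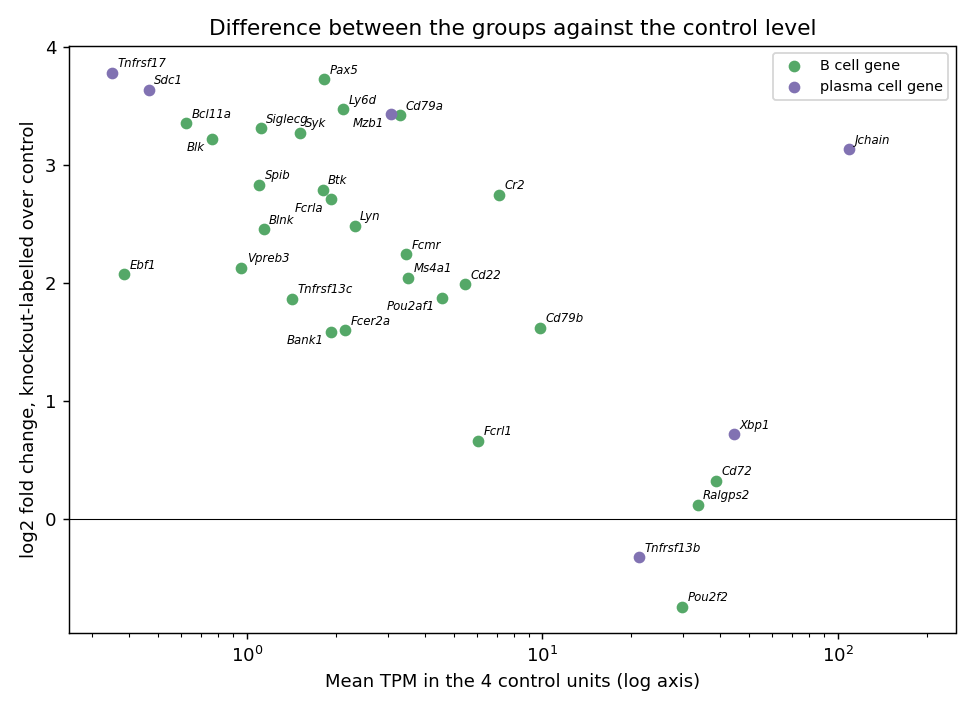
Log2 fold change of each gene, knockout-labelled over control, against its mean TPM in the 4 control units on a log axis. Among the 6 genes right of 10 TPM, Jchain lies at 3.14 and the others between -0.75 and 0.72.

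B cell and plasma cell genes ordered the knockout-labelled units differently. Unit 3 was the lowest of the 3 for 19 of the 27 B cell genes, against 38.6% of all genes tested. For the plasma cell genes it was the highest for 5 of 6, against 36.9% of all genes. Unit 2 was the lowest for 6 of 6, and the share of all genes lowest in unit 2 was not computed. The log2 ratio of unit 3 to the mean of units 1 and 2 had a median of -0.66 over the B cell genes, with 21 of 27 below 0. It had a median of 0.49 over the plasma cell genes, with 0 of 6 below 0, and of -0.03 over all genes. There are only 3 of these units, all of 1 group, so no test was made of their order. Unit 3 is also the unit with the highest neutrophil and erythroid sums.

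The B cell genes did not behave as 1 block in this respect. Cr2, Fcer2a and Ms4a1, genes of mature B cells, were the lowest in unit 3, at 29.8%, 32.0% and 33.3% of the mean of units 1 and 2. Cd79a and Ly6d stood close to the other units, at 83.5% and 84.9%. Bcl11a, Vpreb3, Btk, Pou2af1, Syk and Lyn were above the mean of units 1 and 2, at 179% for Bcl11a and Vpreb3, 148% for Btk, 119% for Pou2af1, 114% for Syk and 111% for Lyn. Of these, Syk, Btk and Lyn are known to be active in myeloid cells and Bcl11a in plasmacytoid dendritic cells. The marker sum of plasmacytoid dendritic cells was 375, 324 and 386 CPM in knockout-labelled units 1, 2 and 3, but its genes differed in order. Irf8 was highest in unit 3, at 64.3, 44.3 and 70.3 CPM. Siglech was lowest there, at 26.4, 14.3 and 7.58 CPM, as was Spib. The part of these cells in the order of Bcl11a was not tested. Against the mean of units 1 and 2, Sdc1 had the highest value of the 33 genes in unit 3, at 241%, and Tnfrsf13b, at 104%, hardly differed.

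**Figure D4:**
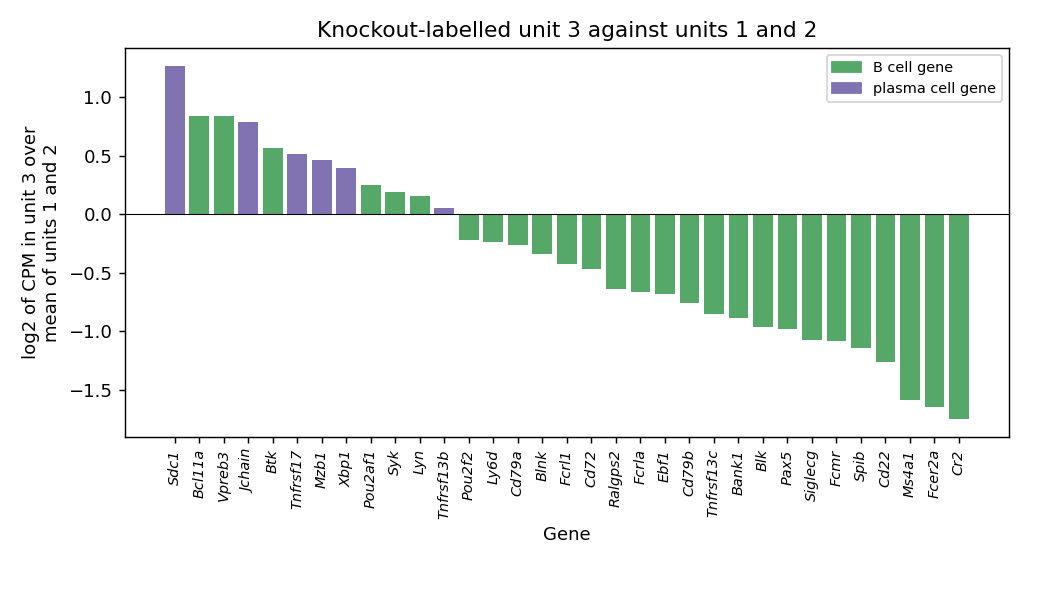
Log2 of the CPM in knockout-labelled unit 3 over the mean of units 1 and 2, one bar for each gene, green for B cell and purple for plasma cell genes. The 6 purple bars lie at or above 0.06, and 21 of the 27 green bars lie below 0.

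The control units showed a split of the same kind. Control unit 1 was the highest of the 4 for 22 of the 27 B cell genes, against 31.3% of all genes tested, and for 1 of the 6 plasma cell genes. Control unit 2 was the highest for 4 of 6 plasma cell genes, against 28.8% of all genes, and for 5 of the 27 B cell genes. Control unit 1 also had the highest myeloid sum of the control units.

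The ratio of Jchain to Cd79a, 1 gene of each class, was tested with 1 value for each unit. Its log2 values among the controls were 4.85, 5.91, 3.90 and 3.38, and under the knockout label 4.51, 4.01 and 5.37. The groups overlapped, and the means differed by 0.12 (exact permutation test over 35 assignments, two-sided, p = 0.886, where the smallest possible p is 0.0286). Within the knockout-labelled group the ratio was highest in unit 3 and within the controls in unit 2. With Cd79b in place of Cd79a the difference was 2.01 (p = 0.0857, same exact test), and with Ms4a1 it was 1.49 (p = 0.286). None of the 3 ratios passed, and their differences were not alike. The plasma cell gene chosen mattered as well. Against Cd79a the log2 ratio differed by 0.08 for Sdc1, 0.03 for Mzb1 and 1.79 for Tnfrsf17, but by -2.77 for Xbp1 and -3.78 for Tnfrsf13b. For 100 Cd79a reads there were 1216 to 2719 Xbp1 reads in the control units and 203 to 339 in the knockout-labelled units, without overlap. For Tnfrsf13b there were 608 to 1795 and 70.4 to 95.8, also without overlap. Cd79a itself rose by 3.43 on the log2 scale, so a gene that hardly changes also separates in this ratio. Ralgps2, which overlapped in CPM, had 1348 to 3111 reads for 100 Cd79a reads against 153 to 236. These further ratios are descriptions and were not tested.

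Immunoglobulin constant genes were read beside the 33. The 10 that could be matched had a sum of 469 to 2405 CPM in the control units and 7028 to 22530 CPM in the knockout-labelled units. Every knockout-labelled unit lay above every control unit for all 10. In edgeR 3 passed, in DESeq2 8 and in limma-voom 3, and 9 had an unadjusted p under 0.05 in edgeR. Ighm, the heavy chain of IgM, was at 668, 1248, 693 and 377 CPM against 6166, 3339 and 8650 CPM (adjusted p = 0.00828). Iglc2, a lambda light chain, passed as well (adjusted p = 0.0121). Ighd, the heavy chain of IgD on naive B cells, was at 13.7, 6.497, 5.34 and 7.09 CPM against 56.8, 48.5 and 17.0 CPM (adjusted p = 0.0262). It was lowest in knockout-labelled unit 3, like most of the B cell genes. Igkc, the kappa chain, was at 245, 556, 108 and 36.9 CPM against 2807, 1439 and 4995 CPM (adjusted p = 0.0687), and was highest in unit 3, like Jchain. The constant genes resemble each other and the counting can split reads between them.

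Other genes of the B cell receptor pathway were given by a list of 23. In edgeR 5 rose, among them Pik3ap1, Plcg2, Fgr and Fcgr2b, and 0 fell, with a median log2 fold change of 0.32, and DESeq2 called 9 as higher. Plcg2, the phospholipase behind BLNK, was at 1.45 to 6.92 CPM against 24.7 to 43.2 CPM (adjusted p = 0.0162). Pik3ap1, an adaptor for PI3 kinase, was at 1.02 to 4.56 CPM against 11.8 to 17.2 CPM (adjusted p = 0.00791). Many others on the list are used by T cells too.

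Of 24 tested genes that are high in mature B cells, 5 rose, among them Ciita, Hhex, Mef2c and Scd1, and 3 fell (Cxcr5, Cd83 and Cd200), while DESeq2 called 8 as higher and 3 as lower. In edgeR 7.07% of all genes tested rose and 6.52% fell. The median log2 fold change of the 24 was 0.18, beside 0.06 over all genes tested, far below that of the 33 genes. Ciita, the master regulator of MHC class II genes, was at 0.879 to 3.70 CPM against 10.5 to 21.1 CPM (adjusted p = 0.00688). Cd83 was at 49.9 to 59.7 CPM in the control units and 18.1 to 32.7 CPM in the others (adjusted p = 0.00735), and Cd200 was at 61.4 to 77.8 CPM against 26.9 to 42.8 CPM (adjusted p = 0.00782). The 3 that fell are known to be expressed by activated or follicular T cells too, and each was at 28.2 CPM or more in every control unit. The sum of the myeloid markers was 40.0 to 189 CPM in the control units and 285 to 669 CPM in the others. In which cells the genes of these lists rose or fell was not tested.

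Of 25 other plasma cell genes, 6 rose and 1 fell, against 8 and 3 in DESeq2. Their median log2 fold change was 0.33. Their summed level overlapped between the groups, at 2749 to 3185 CPM in the control units and 2621 to 3099 CPM in the others. Derl3, a factor of protein disposal from the endoplasmic reticulum, was at 0.838 to 2.20 CPM in the control units and 8.70 to 23.6 CPM in the others (adjusted p = 0.00165). Txndc5, a disulfide isomerase, was at 42.7 to 77.6 CPM against 114 to 237 CPM (adjusted p = 0.0122), and Creld2, Fkbp11, Ell2 and Herpud1 rose as well. Trp53inp1 fell, from 630 to 815 CPM to 299 to 482 CPM (adjusted p = 0.0134). The regulators Prdm1 and Irf4, which regulatory T cells also use, did not pass (adjusted p = 0.698 and 0.102). Of 11 tested genes of germinal centre B cells, 0 passed in edgeR, DESeq2 or limma-voom, and at an unadjusted p under 0.05 in edgeR 3 were higher and 1 lower. Bcl6 was among these 11 (adjusted p = 0.276), whose median log2 fold change was -0.15. Of 6 tested genes for ligands and survival factors, 1 rose: Il6, at 0 in every control unit and at 1.11, 1.45 and 1.29 CPM in the others (adjusted p = 0.00589). Tnfsf13b, the BAFF ligand of Tnfrsf13c, was at 0.0999 to 1.32 CPM against 0.496 to 1.02 CPM (adjusted p = 0.857).

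The genes whose pattern was most like that of Cd79a were searched among 9838 genes outside the 33 with a mean of at least 5 CPM. Immunoglobulin genes, pseudogenes and genes of unconfirmed type or provisional name were left out of the search beforehand. By the Pearson correlation of log2 CPM over the 7 units, the closest 10 were Cpne4, Cd74, Ccl4, Gata2, Icam1, Lat2, Lcn2, Anxa1, Ccl3 and Plac8. The 7 units fall into the 2 groups, so this order mostly ranks genes by how sharply they separate them. Cd74, the invariant chain of MHC class II, was at 25.7 to 86.8 CPM in the control units and 341 to 495 CPM in the others (adjusted p = 0.0146). Lat2, an adaptor of B cells and mast cells, was at 1.92 to 2.99 CPM against 9.01 to 13.0 CPM (adjusted p = 0.00161). Gata2 and Lcn2 are genes of mast cells and their precursors and of neutrophils, and were at 0 to 0.733 CPM and 0 to 0.157 CPM in the control units.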

How the data were processed

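The 14 samples were sequenced with an Illumina kit that does not keep strand, per the labels' protocols. Reads had been assigned to transcripts of GRCm38 with kallisto, per the submitters' processing notes, of a version not given in the sources used here. Estimated counts per transcript were deposited by the authors, unnormalized. The TPM values were also deposited by the authors (per the file headers), scaled by transcript length and library total.

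Transcripts were matched to GENCODE genes, and 2079 of 88198 had no match (1.17% to 1.28% of a sample's reads). Counts were summed for each gene and for the 2 samples of a first number, then rounded. Those samples differed by a chi-square per degree of freedom of 1.44 to 1.90, against 7.37 to 108 between units of a group. No label ties animals to numbers. The p-values therefore rest on a spread among units that may be technical.

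Genes were tested with edgeR 4.0.16 in R 4.3.3 (TMM, filterByExpr, robust quasi-likelihood, group only, Benjamini-Hochberg at 0.05). On simulated counts with the spread of these data, the fit recovered 33% of 2-fold and 63% of 4-fold changes. Of its 103 calls there, 6.8% were false, so real differences can fail to pass. Far fewer genes were changed in the simulation than passed in the data. The adjustment depends on that number, so these shares may not carry over. SE values derive from the F statistic. DESeq2 1.42.0, limma 3.58.1, other scalings, filters, a GC and length offset, a replicate block, unsummed samples and leaving out each unit were alternatives. The log2 ratio of Jchain to Cd79a, with 0.5 added to each count, was compared by exact permutation. The 33 genes and all lists were chosen with earlier results of these data known. All 33 genes are named; of each other list the 3 genes with the smallest adjusted p could be named, with Prdm1, Irf4, Ighm, Igkc and Tln1. Some genes of these lists, kept in the counts, are not reported here by name. Other names were chosen after their values were seen. Protein motifs were not analysed here. Iglc1 and Iglc3 were not matched.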

Additional observations from a re-analysis of the deposited data

Results flagged for a closer look

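In 3 of the 33 genes 1 control unit stood apart from the other three, with a gap to its nearest neighbour, as a share of the whole range of the 4 control units, above Dixon's critical value. Lyn was at 19.3 CPM in control unit 1, with a gap of 0.859 of the range. Bcl11a was at 7.31 CPM in control unit 1, with a gap of 0.830. Tnfrsf17 was at 1.03 CPM in control unit 2, with a gap of 0.951. Chance alone marks about 1 in 20 groups, and the 33 genes share their libraries. In control unit 1 the myeloid marker sum was also the highest of the controls, at 189 CPM, and its part was not tested.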

How the results depend on the processing

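Over 561 pairs of a gene and an alternative, 497 kept their side of the threshold, 27 newly passed, 37 were lost and 0 changed direction. Of the 21 calls among the 33 genes, 13 held in each of the 7 fits without 1 unit, and 11 held in all 17 alternatives (Cd79a, Cd79b, Fcrla, Ly6d, Tnfrsf13c, Blk, Blnk, Ebf1, Pou2af1, Sdc1 and Mzb1). Scaling and filter choices moved at most 1 of the calls. The DESeq2 Wald test called 3546 genes, 1839 higher and 1707 lower, with 5 plasma cell genes higher. The GC and length offset left 1263 genes, 729 higher and 534 lower, with 15 B cell genes higher. With the 14 samples as replicates 7012 genes passed, 3848 higher and 3164 lower, with 5 plasma cell genes higher and 1 lower. No sign was seen that the first numbers pair the groups (correlations of deviations 0.02, -0.19 and -0.05). Pairs of unlike numbers ran from -0.32 to 0.32, so with so few units this check cannot exclude a pairing. With the replicate block 612 genes passed, 345 higher and 267 lower; 16 B cell genes were higher and 0 lower, and 2 plasma cell genes were higher. Without 1 unit the totals ran from 758 to 1905, with 449 to 1120 higher and 309 to 978 lower, and the lowest of each came without control unit 4. B cell genes higher ran from 10 to 20, B cell genes lower from 0 to 1, and plasma cell genes higher from 3 to 4. The share of calls that were higher was 52.1%, and across the alternatives it ran from 45.7% with the filter of at least 1 CPM in 3 units, and 47.4% without control unit 3, to 62.0% without control unit 1 and 63.8% without knockout-labelled unit 2. The Jchain to Cd79a difference ran from -0.26 to 0.59 without 1 unit. It was -0.084 without control unit 3, -0.26 without control unit 4 and -0.25 without knockout-labelled unit 3. With the replicate block it was -0.26 (exact sign-flip p = 0.75). The smallest possible p of that test is 0.25, so it could not pass. The causes were not tested. Levels of Tnfrsf17, Pax5 and Vpreb3 in the control units, near or under 1 CPM, rest on few reads.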
